A study of Mus musculus with 5 samples.

Results

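The genes described here are 10 imprinted genes of mouse muscle cells that lie outside the Igf2-H19 locus: Meg3, Rian, Mirg and Dlk1 of the Dlk1-Dio3 cluster, and Peg3, Cdkn1c, Mest, Plagl1, Grb10 and Ndn elsewhere in the genome. They were taken by name from the 54232 genes of the table, by matching the Ensembl identifiers to GENCODE M21, and all 10 were among the 18156 genes tested. RNA was sequenced from primary myoblasts, muscle precursor cells that fuse into multinucleated myotubes, isolated from leg muscles of mice aged 6 to 8 weeks and differentiated for 72 h in horse serum. The groups were WT (n = 3) and Elmo2 EID/EID (n = 2), the latter homozygous for a germline knock-in (I196D) present in every cell of the animal. The substitution lies in the inhibitory domain of ELMO2, a scaffold protein of the RAC activator DOCK1, and favors its open conformation. Mice of both genotypes were on a mixed C57BL6 and 129SV background, and cells were enriched with magnetic beads for satellite cells and for an integrin of muscle cells.

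An imprinted gene is transcribed mainly from the copy inherited from one parent, because the copies carry different DNA methylation at a control region. Such genes often lie in clusters in which one control region sets several genes, some active on the maternal and others on the paternal chromosome. Many act on growth and on progenitor cells, and several are abundant in fetal and regenerating muscle. The data are counts per gene and do not separate the parental copies, so that only the summed RNA level was measured.

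Recovered totals were between 35021856 and 49381544 reads per sample, and 3 reads corresponded to between 2.65 and 3.73 normalized counts. Normalized counts are reads divided by the size factor of the sample. The labelled cell type showed in its markers, with all 10 myogenic genes tested, among them Myog at 47286 to 53544 normalized counts over the 5 samples. Elmo2 itself had 1642, 1539 and 1660 normalized counts in WT and 1441 and 1327 in Elmo2 EID/EID cells, lower without overlap. A knock-in of 1 codon is not designed to change this level. A positive fold change means a higher level in Elmo2 EID/EID than in WT cells, in units of log2(normalized count + 1), with the standard error (SE) and the adjusted p of limma, corrected over every tested gene by Benjamini-Hochberg. For Elmo2 the log2 fold change was -0.22 (SE 0.07, limma adjusted p = 0.226). The labels do not say whether replicates came from separate animals, and p-values measure the spread between these samples. In RNA from whole cultures, fewer cells of a type and less RNA per cell cannot be told apart.

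Of the 10 imprinted genes, 1 passed an adjusted p of 0.05, against 2.23% of all genes tested (404 of 18156, 197 higher and 207 lower). That gene was Mest, which fell in Elmo2 EID/EID cells. The genotypes did not overlap for 4 of the 10, Peg3 and Grb10 on the higher side and Mest and Cdkn1c on the lower, against 32.6% of all genes tested. The 4 genes of the Dlk1-Dio3 cluster had the widest spread of the 10 between replicates and followed one another from sample to sample. The median log2 fold change of the 10 was 0.35 and that of all genes tested 0.01, and the medians of the absolute log2 fold change were 0.86 and 0.16. Without Elmo2 EID/EID replicate 2 the median of the 10 was 0.14 and the absolute median 0.32, against 0.01 and 0.18 for all genes tested.

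**Figure D1:**
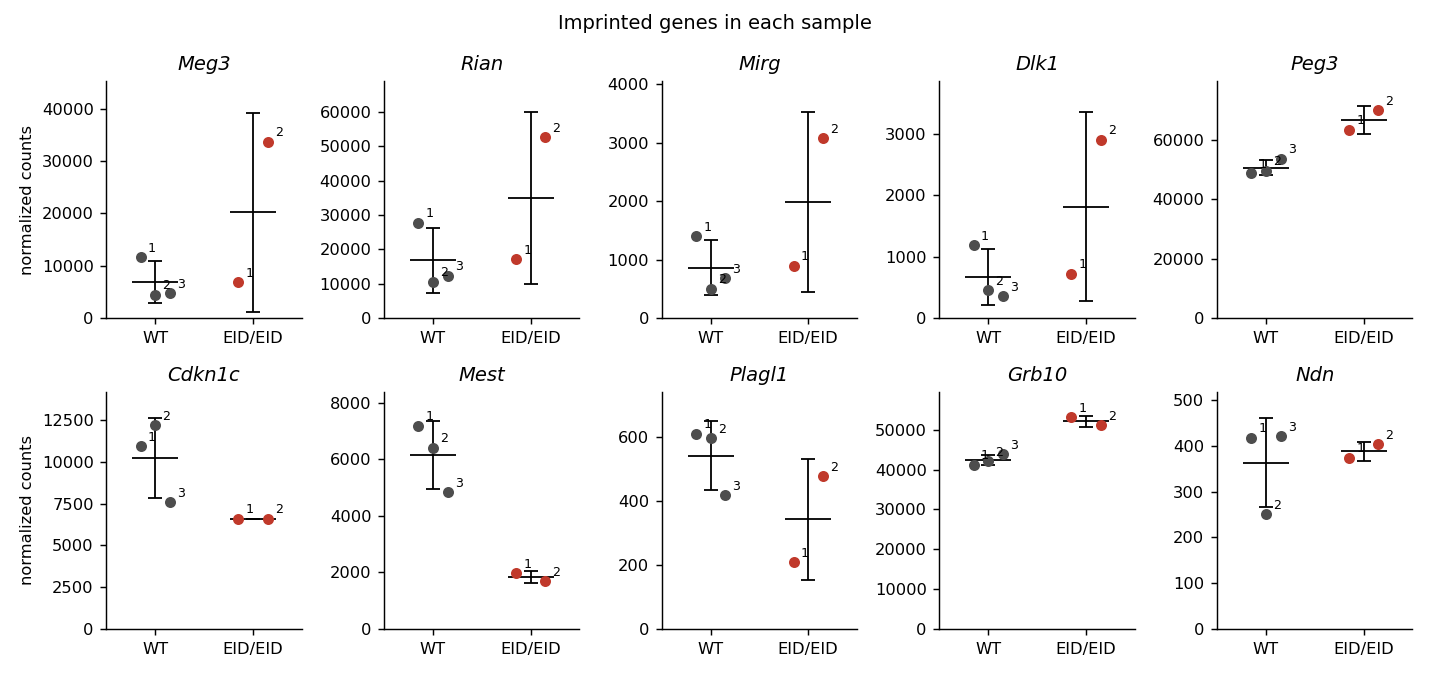
Normalized counts (y axis, from 0) of the 10 imprinted genes in each sample, with the replicate number beside each point and the mean and SD as black bars (WT, n = 3; Elmo2 EID/EID, n = 2). Meg3, Rian, Mirg and Dlk1 are highest in Elmo2 EID/EID replicate 2 and next in WT replicate 1, while the genotypes stand apart for Peg3, Cdkn1c, Mest and Grb10.

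The Dlk1-Dio3 cluster on chromosome 12 has genes active on either parental copy. Dlk1 encodes a transmembrane protein of the Delta family that acts on precursor cells, and is transcribed from the paternal copy. Meg3 (also called Gtl2), Rian and Mirg are long noncoding RNAs of the maternal copy, read in the same direction, and Rian and Mirg are hosts of small nucleolar RNAs and microRNAs. In GRCm38 coordinates all 4 are on the plus strand, with Dlk1 (ENSMUSG00000040856) at chr12:109452823-109463336, Meg3 (ENSMUSG00000021268) at chr12:109541001-109571726, Rian (ENSMUSG00000097451) at chr12:109603940-109661716 and Mirg (ENSMUSG00000097391) at chr12:109729764-109749460. The interval from the start of Dlk1 to the end of Mirg measures 296.6 kb.

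Promoter windows from RefSeq (GRCm38.p6), 250 bases before to 50 after an annotated start, are shown for the protein-coding and the noncoding gene at the head of the cluster, for Mest, the gene that passed the test, and for Peg3. Capitals mark matches on either strand to an E-box (CANNTG, the site of myogenic factors such as MYOD1) or to the core of a cAMP response element (GACGTCA). The core of the YY1 motif (GCCATCT) and the MEF2 motif were also looked for, and neither was in any window of the 4 printed.
Dlk1, chr12:109452573-109452872, plus strand: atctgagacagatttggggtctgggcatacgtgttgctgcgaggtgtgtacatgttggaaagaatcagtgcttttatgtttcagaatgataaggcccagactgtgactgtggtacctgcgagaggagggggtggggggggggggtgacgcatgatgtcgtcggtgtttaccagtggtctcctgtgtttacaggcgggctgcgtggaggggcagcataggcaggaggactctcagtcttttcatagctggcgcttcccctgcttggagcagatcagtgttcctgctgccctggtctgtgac
Meg3, chr12:109540746-109541045, plus strand: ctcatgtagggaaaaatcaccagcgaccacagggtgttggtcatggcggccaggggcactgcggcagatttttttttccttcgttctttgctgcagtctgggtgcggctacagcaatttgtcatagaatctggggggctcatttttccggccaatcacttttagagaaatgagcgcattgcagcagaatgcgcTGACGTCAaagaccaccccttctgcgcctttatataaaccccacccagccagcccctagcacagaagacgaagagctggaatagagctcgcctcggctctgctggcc
Mest, chr6:30737800-30738099, plus strand: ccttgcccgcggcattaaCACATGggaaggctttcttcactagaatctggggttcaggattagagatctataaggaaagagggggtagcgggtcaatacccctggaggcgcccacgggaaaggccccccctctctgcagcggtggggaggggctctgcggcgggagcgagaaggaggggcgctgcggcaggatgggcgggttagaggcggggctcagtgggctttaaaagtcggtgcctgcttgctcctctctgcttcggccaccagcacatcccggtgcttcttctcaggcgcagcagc
Peg3, chr7:6730370-6730669, minus strand: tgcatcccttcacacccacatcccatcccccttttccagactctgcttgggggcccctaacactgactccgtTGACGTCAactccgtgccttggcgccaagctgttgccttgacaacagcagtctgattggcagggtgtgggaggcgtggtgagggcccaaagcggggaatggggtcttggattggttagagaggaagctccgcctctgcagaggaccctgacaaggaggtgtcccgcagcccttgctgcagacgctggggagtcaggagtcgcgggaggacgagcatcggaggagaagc
The Dlk1 window held none of these motifs and 9 CpG sites, and the printed Meg3 window held 13 CpG sites and the response element core. In the Meg3 and Peg3 windows the core matches on each strand, and the 2 matches overlap in the single stretch in capitals. Of 32851 windows of all genes, 3.2% held the response element core, 72.3% an E-box, 6.4% the YY1 core and 3.19% the MEF2 motif, and the median window held 7 CpG sites. The printed Mest window held 17 CpG sites and the Peg3 window 13. Meg3 and Mest have further annotated starts: a second Meg3 window held 1 CpG site, an E-box and no response element core, and of the 3 Mest windows one held 8 CpG sites and 2 E-boxes. Of the 10 genes, 9 had a window in the table. These matches describe the letters only.

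Meg3 had 11616, 4505 and 4746 normalized counts in WT replicates 1, 2 and 3, and 6826 and 33691 in Elmo2 EID/EID replicates 1 and 2. Rian had 27723, 10615 and 12333 normalized counts in WT and 17219 and 52719 in Elmo2 EID/EID cells. In both genes Elmo2 EID/EID replicate 2 was highest and WT replicate 1 next, and Elmo2 EID/EID replicate 1 lay between WT replicate 1 and the remaining WT samples. Mirg had 1398, 507.0 and 684.9 normalized counts in WT and 894.3 and 3077 in Elmo2 EID/EID cells. Dlk1 had 1189, 459.9 and 356.8 normalized counts in WT and 728.0 and 2906 in Elmo2 EID/EID cells. The same order of samples held for Mirg and Dlk1, and the genotypes overlapped in all 4 genes because WT replicate 1 was above Elmo2 EID/EID replicate 1.

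None of these differences passed the test. The log2 fold change was 1.27 (SE 0.69) for Meg3, with an adjusted p of 0.449 from limma (Benjamini-Hochberg). It was 0.97 (SE 0.55) for Rian, 1.08 (SE 0.58) for Mirg and 1.32 (SE 0.68) for Dlk1, with limma adjusted p of 0.469, 0.446 and 0.419. One library set their size: without Elmo2 EID/EID replicate 2 the log2 fold changes were 0.12, 0.16, 0.19 and 0.33 for Meg3, Rian, Mirg and Dlk1, and without Elmo2 EID/EID replicate 1 they were 2.42, 1.78, 1.97 and 2.32. The smallest limma adjusted p of the 4 genes was 0.220 with either Elmo2 EID/EID library left out, for Meg3 without replicate 1.

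The spread between replicates of one genotype was wide in these genes. Elmo2 EID/EID replicate 2 was 4.94 times replicate 1 for Meg3, 3.06 times for Rian, 3.44 times for Mirg and 3.99 times for Dlk1. Of the 11223 genes whose mean reached 100 normalized counts, only 0.0980% differed more between these 2 libraries than Meg3, and 0.196% more than Rian. The highest WT sample was between 2.58 times the lowest, for Meg3, and 3.33 times, for Dlk1, and at most 0.998% of the same genes had a wider WT range.

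The profiles of the 4 genes over the 5 samples were compared by a profile distance, the mean absolute difference of log2 values after each gene was centred on its own mean. It was given no test, because 5 samples are too few for a correlation and the genes share their libraries. The 6 pairs within the cluster had distances of 0.09 to 0.24 log2 units, with a median of 0.19. The 24 pairs of a cluster gene with one of the other imprinted genes had distances of 0.61 to 1.47, with a median of 0.88. These ranges did not overlap, but a gene of steady level would lie at 0.741 to 0.919 from the 4 genes, their own mean deviations, so that the larger distances mainly restate the spread of the cluster genes. The 15 pairs among the other genes lay between 0.06 and 1.02, the closest being Peg3 with Grb10. These 2 genes had mean deviations of only 0.190 and 0.143, and any genes of steady level lie close together. Among 11222 genes, Grb10 was the 56th nearest to Peg3, and Peg3 the 302nd nearest to Grb10.

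**Figure D2:**
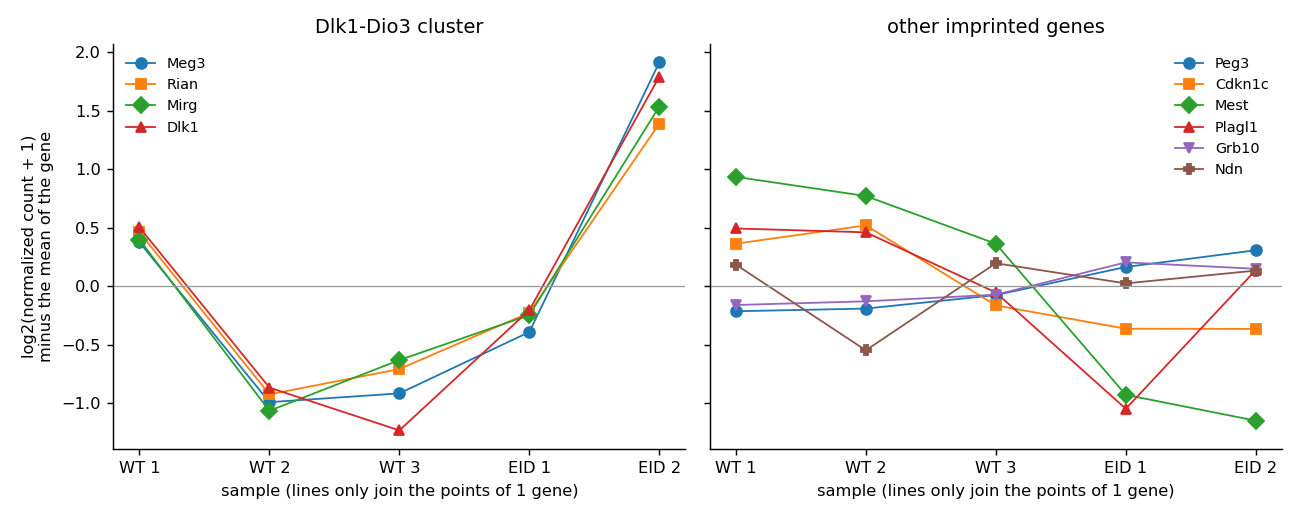
Centred log2(normalized count + 1) values (y axis) of each gene in the 5 samples (x axis), for the Dlk1-Dio3 cluster on the left and the other imprinted genes on the right. The lines of Meg3, Rian, Mirg and Dlk1 lie close together with their highest point in Elmo2 EID/EID replicate 2, and the genes on the right follow several courses.

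**Figure D3:**
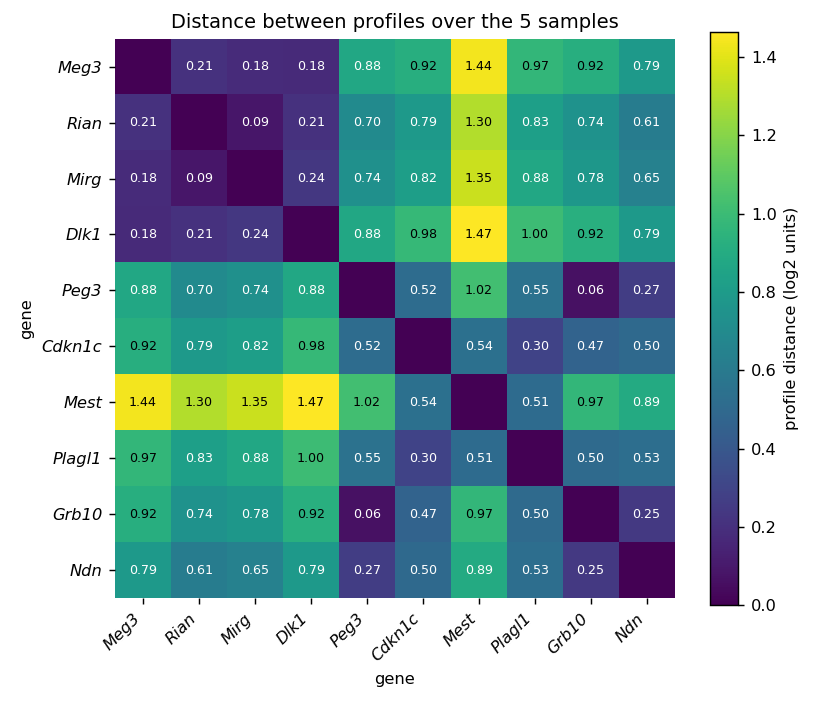
Profile distance in log2 units between each pair of the 10 genes, printed in each cell and shown by color. The 6 pairs within the Dlk1-Dio3 cluster, at the upper left, have distances of at most 0.24, and its genes stand at least 0.61 from the other imprinted genes.

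Ranked against the 11222 other genes whose mean reached 100 normalized counts, the 3 genes nearest to Meg3 were Dlk1, Mirg and Rian, at distances of 0.18, 0.18 and 0.21. The 3 nearest to Dlk1 were Meg3, Rian and Mirg. Rian and Mirg were each the nearest gene to the other, at 0.09. Ptprt, a receptor tyrosine phosphatase gene on chromosome 2, came among the nearest 3 of Rian (0.15) and of Mirg (0.19), with 121, 61.7 and 74.6 normalized counts in WT and 116 and 302 in Elmo2 EID/EID cells.

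Likeness was not identity of level. Per kilobase of exon, the ratio of Rian to Mirg was the steadiest, between 6.85 and 8.37 over the 5 samples. Meg3 stood at 0.388 to 0.428 of the Rian level per kilobase in 4 samples and at 0.644 in Elmo2 EID/EID replicate 2, the sample with the highest level of both. Dlk1 departed in another sample, with a ratio of Rian to Dlk1 of 10.7 per kilobase in WT replicate 3 and 5.63 to 7.34 in the others.

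The region around the cluster was then described, a choice made after these values had been seen. Between the start of Dlk1 and the end of Mirg, 5 genes reached a mean of 100 normalized counts, and the fifth was Rtl1 (ENSMUSG00000085925, chr12:109589193-109600330, minus strand), a paternally expressed gene derived from a retrotransposon that acts in placenta and fetal muscle. Rtl1 had 218, 162 and 108 normalized counts in WT and 325 and 553 in Elmo2 EID/EID cells. Its genotypes did not overlap, and its log2 fold change of 1.43 (SE 0.33) had an adjusted p of 0.0916 from limma (Benjamini-Hochberg) and 8.9e-04 from DESeq2. Its profile distance to Meg3 was 0.53, beyond those within the 4 genes. Dio3, the deiodinase gene at the far end of the cluster, was at or under 3 reads in every sample.

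All 22 genes tested between Dlk1 and Mirg had their highest value in Elmo2 EID/EID replicate 2, as did 24.0% of all genes tested. The 17 with lower means were mostly microRNA, small nucleolar RNA and noncoding RNA genes, and 7 of them passed the minimum of 5 normalized counts in that sample alone, so that they could be highest nowhere else. Of the 20 genes tested within 1000000 bases on either side, 3 were highest in that sample. Their profile distances to Meg3 were at least 0.837, which is near what any gene of steady level has, since Meg3 itself deviated from its mean by 0.917 log2 units on average, so that these distances by themselves set no contrast between the cluster and its flanks. The 17 lower genes inside the cluster had distances of 0.236 to 0.968, a range that reaches past the nearest flanking gene. Yy1, Evl and Wars on the Dlk1 side and Ppp2r5c, Dync1h1 and Hsp90aa1 on the Mirg side were among these flanking genes.

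**Figure D4:**
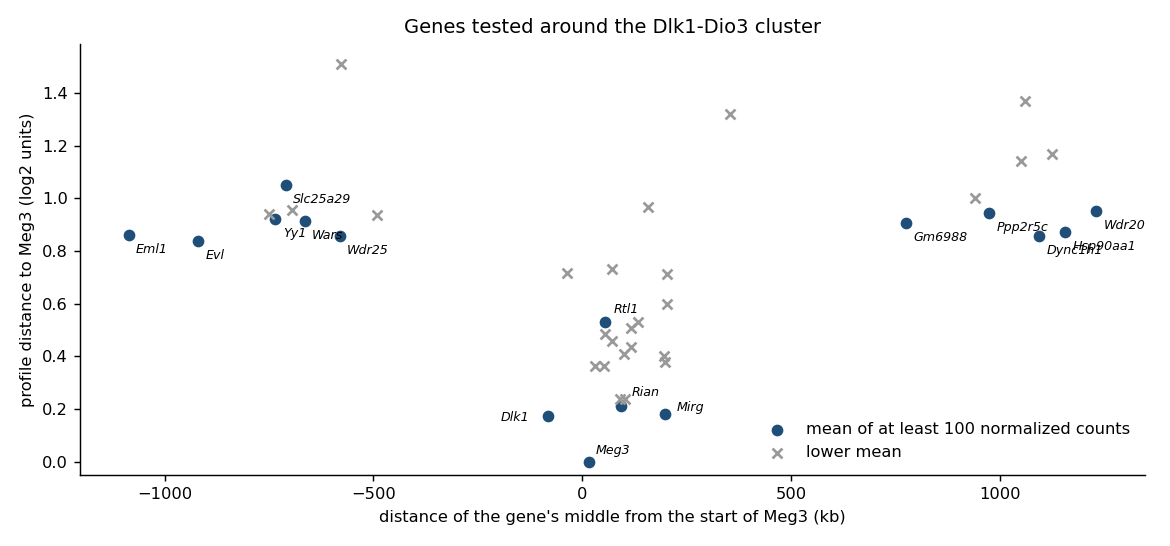
Profile distance to Meg3 (y axis, log2 units) of the genes tested in the cluster and within 1000000 bases of it, by the distance of the middle of the gene from the start of Meg3 (x axis, kb). Genes whose mean reached 100 normalized counts are blue points with names and lower ones gray crosses. Dlk1, Rtl1, Rian and Mirg lie at 0.18 to 0.53, the lower genes inside the cluster at 0.236 to 0.968, and the flanking genes at 0.837 or above, where a gene of steady level also lies (0.917).

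The annotation places 57 microRNA hairpins between Dlk1 and Mirg, 14 of them in Mirg and 3 in Rian. Mir433 and Mir434 lie inside Rtl1 on the opposite strand, and their maternal microRNAs pair with the Rtl1 transcript. Their mature 3′ arms from RefSeq, with the seed (bases 2 to 8) in capitals, are shown because the hairpins and Rtl1 share this place while coming from different parental copies.
mmu-miR-433-3p: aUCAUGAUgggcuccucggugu
mmu-miR-434-3p: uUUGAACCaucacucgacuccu
The seeds of the pair differ. The Mir433 hairpin row had 2.65, 2.24 and 1.24 normalized counts in WT and 1.79 and 19.7 in Elmo2 EID/EID cells, and that of Mir434 had 0.884, 1.12 and 1.24 in WT and 1.79 and 16.1 in Elmo2 EID/EID cells. Only Elmo2 EID/EID replicate 2 was above 3 reads for either. These libraries were made from poly-A RNA, so that such rows count long transcripts across the hairpin and not mature microRNAs.

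Markers of other cells varied over the same samples. The summed level of 12 endothelial markers was 991, 246 and 1049 normalized counts in WT and 2687 and 4000 in Elmo2 EID/EID cells. It was highest in the sample with the highest Meg3, 11 of the 12 markers were higher in Elmo2 EID/EID cells without overlap and the other, Cldn5, was lower without overlap at under 7 normalized counts in every sample, and 0 of the 12 passed limma's test, with 9 at an unadjusted p under 0.05, 2 called by edgeR and 5 by DESeq2. Of all genes tested, 32.6% did not overlap, 2.23% passed limma's test and 2.25% that of edgeR, and DESeq2 called 5.56% of those it tested. The share of all genes at an unadjusted p under 0.05 was not counted, here or for the lists below. Cdh5 had 281, 59.5 and 297 normalized counts in WT and 727 and 1001 in Elmo2 EID/EID cells. The summed level of 8 markers of fibro-adipogenic progenitors was 1601, 222 and 1258 in WT and 1172 and 1285 in Elmo2 EID/EID cells, with 2 of the 8, Lum and Pi16, at or under 3 reads in every sample. The summed level of 8 Schwann cell markers was 16147 to 17059 in WT and 15619 to 16019 in Elmo2 EID/EID cells, and that of 6 macrophage markers 139 to 168 and 167 to 288. The part of these markers in the levels of the cluster was not tested.

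Among the genes outside the cluster, Mest encodes a paternally expressed protein of the hydrolase family that is abundant in mesoderm, and lies at chr6:30723547-30748465 (ENSMUSG00000051855, plus strand). Mest had 7191, 6419 and 4839 normalized counts in WT and 1977 and 1697 in Elmo2 EID/EID cells. Every Elmo2 EID/EID value was below every WT value. Mest fell by 1.73 on the log2 scale (SE 0.17), with an adjusted p of 0.00516 from limma and 0.00439 from edgeR, both with Benjamini-Hochberg adjustment. With 1 Elmo2 EID/EID library left out the size stayed at -1.84 without replicate 1 and -1.62 without replicate 2, but the limma adjusted p was 0.0722 and 0.124. It was 0.0677 for limma without the mean-variance trend.

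Cdkn1c encodes the cyclin-dependent kinase inhibitor p57, which acts in the cell cycle exit of differentiating muscle cells, and is transcribed from the maternal copy (ENSMUSG00000037664, chr7:143458339-143461050, minus strand). Cdkn1c had 10936, 12188 and 7586 normalized counts in WT and 6609 and 6602 in Elmo2 EID/EID cells. The Elmo2 EID/EID values were nearly equal and below all WT values, with WT replicate 3 closest to them. Its log2 fold change of -0.60 (SE 0.19) had an adjusted p of 0.193 from limma (Benjamini-Hochberg). The adjusted p was 0.159 from edgeR and 0.0153 from DESeq2. Without WT replicate 3 the log2 fold change was -0.81, with a limma adjusted p of 0.0115. With the replicate number as a block, WT replicate 3 has no partner. That fit gave the same -0.81 from the same samples, with a limma adjusted p of 0.024. Without WT replicate 1 or 2 the log2 fold change was -0.54 and -0.46, with limma adjusted p of 0.417 and 0.341. It stayed at -0.60 without either Elmo2 EID/EID sample. Kcnq1ot1, the paternal noncoding RNA of the same cluster, had 282, 369 and 256 normalized counts in WT and 321 and 725 in Elmo2 EID/EID cells, with overlap. Phlda2, another maternally expressed gene of that cluster, was at or under 3 reads in every sample.

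Markers of the myogenic state and of dividing cells are given beside these genes. Pax7, the transcription factor of satellite cells, had 922, 942 and 837 normalized counts in WT and fell to 414 and 298 in Elmo2 EID/EID cells, a log2 fold change of -1.35 (SE 0.15, adjusted p = 0.00764 from limma (Benjamini-Hochberg)). It was the only one of the 10 myogenic markers to pass limma's test. Without overlap, 4 of the 10 were higher (Myf5, Myf6, Ckm and Myog, with log2 fold changes of 0.74, 0.28, 0.28 and 0.10) and 3 lower (Pax7, Myod1 and Des), and of all genes tested 32.6% did not overlap. The summed level of 6 markers of cycling cells was 3080, 2976 and 2177 in WT and 2030 and 2193 in Elmo2 EID/EID cells, with 3 of the 6 lower without overlap, to be read against the same 32.6%. By limma 0 of the 6 passed, with 2 at an unadjusted p under 0.05 and 0 called by edgeR or DESeq2. WT replicate 3 was the lowest WT sample for this sum, for Mest and for Cdkn1c. The summed level of 7 pericyte and smooth muscle markers was 10989 to 12819 in WT and 9956 to 10013 in Elmo2 EID/EID cells, with Abcc9 its largest term (5144 to 7209 over the 5 samples). Of these 7, Rgs5 and Notch3 fell by limma's test, which 2.23% of all genes tested passed. Cspg4 and Myh11 were higher in Elmo2 EID/EID cells without overlap, with log2 fold changes of 0.39 and 1.42 that did not pass. The part of these markers in the levels of Mest and Cdkn1c was not tested.

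Peg3 encodes a large zinc finger protein of the paternal copy that is abundant in muscle progenitors (ENSMUSG00000002265, chr7:6703892-6730431, minus strand). Peg3 had 48833, 49614 and 53726 normalized counts in WT and 63471 and 70082 in Elmo2 EID/EID cells. The groups did not overlap, and replicates of a genotype differed by at most 1.10 times. Its log2 fold change of 0.40 (SE 0.08) had an adjusted p of 0.0694 from limma (Benjamini-Hochberg), and 3.45e-04 from the DESeq2 Wald test.

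Of 3 neighbors of Peg3, Usp29 and Zim1 were measured at higher values in both Elmo2 EID/EID samples and Zfp264 had 0 reads in all 5 samples. Usp29, a deubiquitinase gene read away from Peg3 on the opposite strand, had 883, 837 and 943 normalized counts in WT and 1184 and 1393 in Elmo2 EID/EID cells. Its log2 fold change of 0.53 (SE 0.10) had an adjusted p of 0.0502 from limma and 0.0470 from edgeR with Benjamini-Hochberg adjustment. Zim1, a zinc finger gene of the maternal copy, had 10169, 9367 and 7897 normalized counts in WT and 12481 and 15183 in Elmo2 EID/EID cells, a log2 fold change of 0.60 (SE 0.13, limma adjusted p = 0.0757). Neither Peg3, Usp29 nor Zim1 passed limma's test, and in each of them both Elmo2 EID/EID samples were above all WT samples, with 32.6% of all genes tested free of overlap. DESeq2 called all 3, against 5.56% of the genes it tested, with an adjusted p of 7.46e-04 for Usp29 and 9.32e-04 for Zim1.

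Grb10 encodes an adaptor protein that restrains insulin and growth factor signaling, and outside the brain is transcribed from the maternal copy (ENSMUSG00000020176, chr11:11930508-12038683, minus strand). Grb10 had 41279, 42195 and 43883 normalized counts in WT and 53132 and 51157 in Elmo2 EID/EID cells. It was the steadiest of the 10 within WT, where the highest sample was 1.06 times the lowest. Its log2 fold change of 0.30 (SE 0.07) had an adjusted p of 0.088 from limma (Benjamini-Hochberg) and 7.76e-04 from DESeq2. With DESeq2 on the recovered reads, 4 of the 10 genes passed (Mest, Cdkn1c, Peg3 and Grb10), against 5.56% of the genes that this tool tested.

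Plagl1 (ENSMUSG00000019817, chr10:13060504-13131694, plus strand) encodes a zinc finger transcription factor of the paternal copy that regulates other imprinted genes. Plagl1 had 610.5, 596.7 and 417.7 normalized counts in WT and 209.3 and 476.9 in Elmo2 EID/EID cells. Elmo2 EID/EID replicate 2 lay within the WT range and replicate 1 below it, and the log2 fold change of -0.75 (SE 0.34) had an adjusted p of 0.367 from limma (Benjamini-Hochberg). It was -0.16 without Elmo2 EID/EID replicate 1 and -1.35 without replicate 2. Ndn (ENSMUSG00000033585, chr7:62346569-62350262, plus strand) encodes Necdin, a paternally expressed protein of the MAGE family known in myoblast differentiation. Ndn had 417.9, 251.3 and 421.4 normalized counts in WT and 373.8 and 403.4 in Elmo2 EID/EID cells, with overlap. Its log2 fold change of 0.13 (SE 0.23, limma adjusted p = 0.842) became -0.11 without WT replicate 2, the lowest sample.

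Levels can be set against each other only per length. Per kilobase of exon, the WT mean was 5021 normalized counts for Cdkn1c, 4671 for Grb10, 3807 for Peg3 and 1559 for Mest. Rian followed at 926 and Meg3 at 385, and Mirg (118), Dlk1 (118), Ndn (98.4) and Plagl1 (69.3) were lowest. Of neighbors in this order, Grb10 and Peg3, Peg3 and Mest, and Meg3 and Mirg had no overlap between their WT samples, whereas the other neighbors overlapped. These values carry no correction for exons that a cell does not use.

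**Figure D5:**
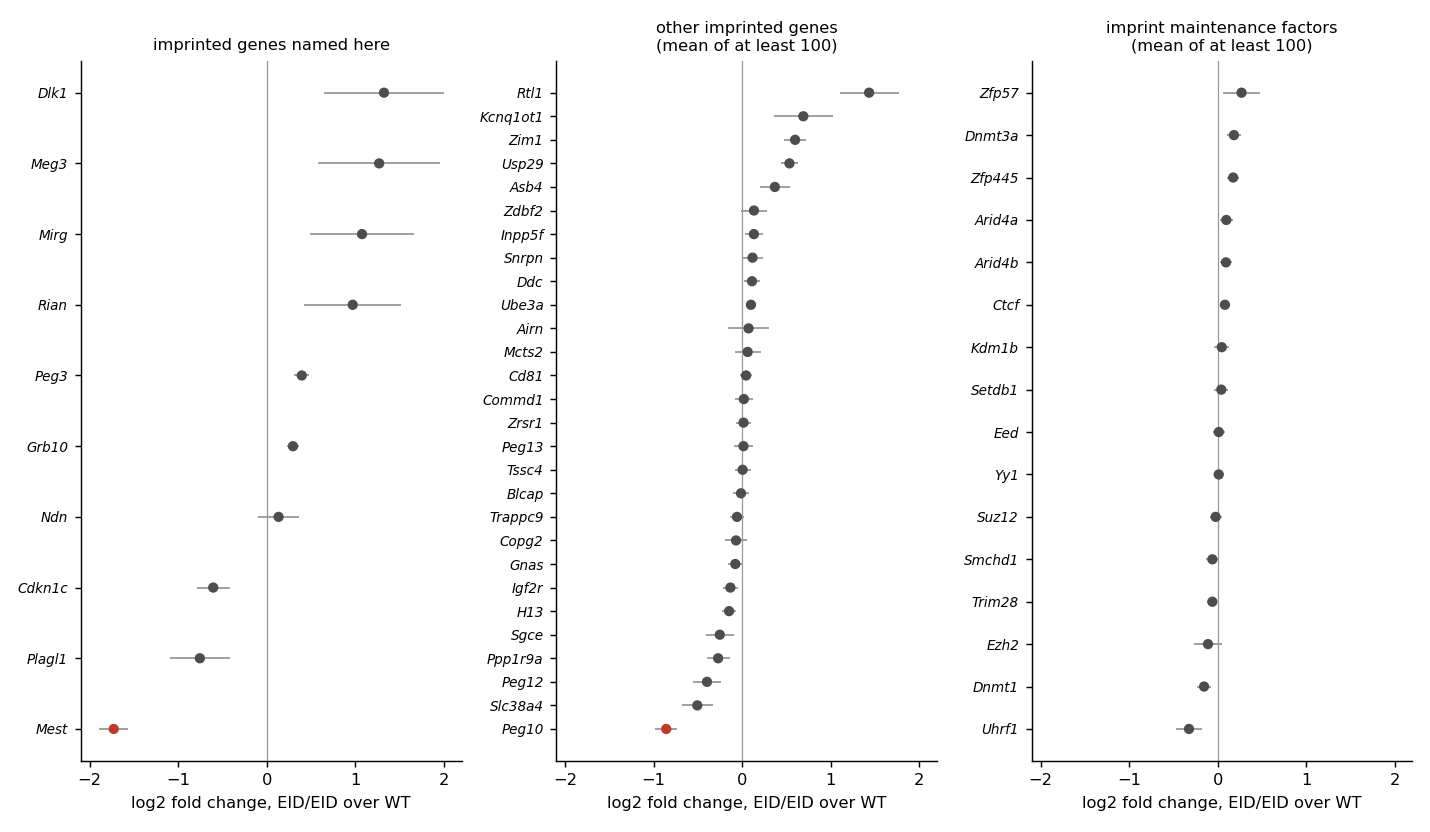
Log2 fold change of Elmo2 EID/EID over WT with its SE (x axis) for the 10 genes, for other imprinted genes and for imprint maintenance factors whose mean reached 100 normalized counts. Red points passed an adjusted p of 0.05 in limma, which are Mest (-1.73) and Peg10 (-0.86).

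A wider list held 44 other imprinted genes, of which 35 were tested. Of these, 0 rose and 1 fell by limma's test, 6 were higher and 6 lower without overlap, and the median log2 fold change was 0.01. Over all genes tested 2.23% passed and 32.6% did not overlap, close to the shares of this list by limma and by overlap. The DESeq2 test called 4 of them, Rtl1, Usp29, Zim1 and Peg10, and edgeR 2, Usp29 and Peg10, where DESeq2 called 5.56% and edgeR 2.25% of all genes they tested. The gene that fell was Peg10 (chr6:4747306-4760517), a paternally expressed gene derived from a retrotransposon, with 5764, 4905 and 4221 normalized counts in WT and 2789 and 2647 in Elmo2 EID/EID cells, a log2 fold change of -0.86 (SE 0.13, adjusted p = 0.0248 from limma (Benjamini-Hochberg)). Snrpn, of the same imprinted region as Ndn, had 1104, 984 and 1298 normalized counts in WT and 1233 and 1199 in Elmo2 EID/EID cells. Of the whole list, 6 genes were at or under 3 reads in every sample.

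Imprints are kept through cell division by DNA methyltransferases and by zinc finger proteins that bring repressors to the methylated copy. The list of 17 imprint maintenance factors used here was wider, with Dnmt3a, Dnmt3b and chromatin proteins such as Ezh2 and Smchd1. All were tested, and 0 passed the test of limma, edgeR or DESeq2, against 2.23%, 2.25% and 5.56% of all genes these tools tested. Without overlap, 4 were higher and 3 lower, against 32.6% of all genes tested. Only Zfp445 had an unadjusted limma p under 0.05, with a log2 fold change of 0.18 (SE 0.07). The log2 fold changes of the 17 lay between -0.32, for Uhrf1, and 0.27, for Zfp57. Uhrf1, which brings the maintenance methyltransferase to newly copied DNA, had 354, 292 and 273 normalized counts in WT and 231 and 256 in Elmo2 EID/EID cells. Zfp57, which binds methylated control regions, had 940, 750 and 1009 in WT and 857 and 1354 in Elmo2 EID/EID cells, with the highest value in Elmo2 EID/EID replicate 2. Dnmt3a, a methyltransferase of unmethylated DNA, had 2227, 2478 and 2341 in WT and 2838 and 2504 in Elmo2 EID/EID cells, a log2 fold change of 0.18 (SE 0.08).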

How the data were processed

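Poly-A RNA of WT (n = 3) and Elmo2 EID/EID (n = 2) myoblasts was sequenced as stranded read pairs. Per the labels and the study's methods, the authors aligned untrimmed reads to GRCm38 with STAR 2.5.1b, assigned unique alignments to genes with featureCounts 1.4.6, and deposited those counts after division by DESeq2 1.34.0 size factors, a signal per gene. Whole reads were recovered (100% of positive values within 0.01 of a read), and floors of 3 reads cover counting error only. Reads of overlapping genes or near-identical copies may be uncounted.

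Genes that reached 5 normalized counts in 1 sample or more were tested with limma 3.58.1 (lmFit, eBayes with trend, two-sided, no replicate block) on log2(normalized count + 1), with Benjamini-Hochberg adjustment. Tests were tried on simulated counts. Alternatives were edgeR 4.0.16 and DESeq2 1.42.0 on recovered reads, other pseudocounts, filters and normalizations, a block on the replicate number, limma without trend, and each sample left out. Members, lists, motifs and the naming rule (the 10 genes, set neighbors, list genes called or largest, nearest profiles, markers) were chosen with earlier results of these data known.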

Additional observations from a re-analysis of the deposited data

How the results depend on the processing

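The number of genes called, 404, was 961 with DESeq2, 155 with no filter on low values, 144 in limma without trend and 34 to 335 with 1 sample left out. Of the 10 imprinted genes, 1 was called, against 4 with DESeq2, 0 without trend and 0 to 2 with 1 sample left out. The replicate number shared by the genotypes was added as a block, which called 224 genes and 2 of the 10 (Mest and Cdkn1c). The labels do not say whether the numbers pair the samples. Over 15107 genes the gap between replicates 1 and 2 correlated at -0.20 between the genotypes. This contrast has no replication and cannot decide the question. Of 150 values of the 10 fold changes over 15 settings, 141 kept their direction and their side of the threshold, 5 passed newly, 3 (Mest) no longer passed and 1 turned direction, Ndn at -0.11 without WT replicate 2 (-0.11 to 0.26 with 1 sample left out). The largest profile distance within the Dlk1-Dio3 cluster, 0.24, was 0.236 to 0.295 under the alternatives, chosen after seeing the data. The causes were not tested. Values near 3 reads, such as those of the hairpins, carry the most counting error, and the part of depth in the other values was not tested.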
